A study of Homo sapiens with 24 samples.

Results

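The proteasome genes of a human mammary epithelial line were followed over 48 h of MYC activation. Members were all protein-coding rows whose symbol reads PSMA, PSMB, PSMC, PSMD, PSME, PSMF or PSMG followed by a number, which gave 48 of the 60668 genes in the count table. They comprise 7 constitutive alpha and 7 constitutive beta subunits of the 20S core, 5 immune or tissue-specific 20S subunits, 6 ATPases and 11 non-ATPase subunits of the 19S cap, 3 19S and 4 20S assembly chaperones, and 5 activators or inhibitors. RNA came from 3D cultures on Matrigel of MCF-10A, an immortalised non-tumour breast epithelial line, and of MCF-10A cells that carry MYC-ER. MYC-ER joins the transcription factor MYC to an oestrogen receptor domain that binds the ligand 4-hydroxytamoxifen (4-OHT). The ligand releases the fusion to act in the nucleus, and its promoter and species of origin are not given in the sources used here. Both lines received 1 µM 4-OHT for 0, 8, 24 or 48 h, started from the third day of culture, and all cultures were harvested together on day 5. Each of the 8 line and time groups has 3 libraries. The 0 h MYC-ER group therefore carries the fusion without its ligand, and the parental groups show 4-OHT without the fusion. The replicates are described as wells seeded in triplicate, so p-values measure the spread between these cultures only.

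The proteasome degrades proteins tagged with ubiquitin. Its 20S core is a barrel in which outer alpha rings gate the entrance and inner beta rings hold the proteolytic sites of PSMB5 (chymotrypsin-like), PSMB6 (caspase-like) and PSMB7 (trypsin-like). The 19S cap binds ubiquitin chains, removes them and unfolds the substrate with its ATPase ring. In cells exposed to interferon, PSMB8, PSMB9 and PSMB10 can replace PSMB5, PSMB6 and PSMB7 in newly built cores, and PSME1 with PSME2 forms the 11S activator, which favours peptides for MHC class I presentation. Subunits are assembled in fixed stoichiometry, and the transcription factor NFE2L1 is known to raise their genes together when proteasome activity is short.

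Promoter sequence is shown for all members with an E-box, the site of MYC, and as examples for some of those with an interferon or ETS motif. RefSeq (GRCh38.p14) windows of 300 bases that span the annotated start were found for 42 of the 48 members, and both strands were searched. The E-box CACGTG, the site bound by MYC with MAX, was present for 3 of the 42 members, or 7.14%, against 8.77% of 27305 genes. Its holders are PSME3, which encodes a nuclear activator of the 20S core, PSMD9, a 19S assembly chaperone, and PSMB3, a non-catalytic beta subunit. Capitals mark the E-box in these stretches, which lie on the plus strand at chr17:42833317-42833396, chr12:121888630-121888709 and chr17:38752491-38752570.
PSME3: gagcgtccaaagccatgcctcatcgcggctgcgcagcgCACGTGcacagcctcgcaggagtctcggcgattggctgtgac
PSMD9: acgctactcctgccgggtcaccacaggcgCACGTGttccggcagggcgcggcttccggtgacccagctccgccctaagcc
PSMB3: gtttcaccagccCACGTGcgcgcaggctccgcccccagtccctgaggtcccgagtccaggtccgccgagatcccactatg
The core of the interferon-stimulated response element, searched as GAAA, any pair of bases and GAAA again, was present for 7 of the 42 members (16.7%) against 4.38% of all genes. The 7 are PSMA4, PSMB4, PSMB8, PSMB10, PSME1, PSME2 and PSMG4. The match of 4 of them is in capitals below, at chr16:67936851-67936910 and chr14:24146611-24146670 (both genes on the minus strand), chr6:32844031-32844060 (minus strand, the second annotated PSMB8 start) and chr14:24136189-24136218 (plus strand). In PSMB8 and PSME1 the match is on the strand opposite to the gene, so its reverse complement is what appears.
PSMB10: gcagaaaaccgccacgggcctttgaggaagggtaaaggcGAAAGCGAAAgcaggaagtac
PSME2: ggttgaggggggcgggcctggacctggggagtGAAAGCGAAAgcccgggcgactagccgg
PSMB8: atctgtggcTTTCGCTTTCacttcctcctc
PSME1: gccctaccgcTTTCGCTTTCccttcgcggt
The ETS site CCGGAAG was present for 15 of the 42 (35.7%) against 12.2% of all genes, and is in capitals for PSMD14, the deubiquitinase of the 19S lid, at chr2:161308409-161308438 on the plus strand.
PSMD14: aaactagtgaacCCGGAAGtgcttcgcggc
The antioxidant response element core TGACNNNGC, to which NFE2L1 binds, was present for 15 of the 42 (35.7%) against 16.1% of all genes, and CCAAT for 20 (47.6%) against 39.7%. In these motif shares, all genes are the 27305 with a RefSeq window, not filtered on gene type or expression, whereas all members are protein-coding. A match describes letters in the window and no binding was measured here.

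Totals ran from 136860029 to 182438505 counts per library, and 46 of the 48 members passed the filter on low counts. PSMA8, a testis alpha subunit, had 0 counts in every library, and PSMB11, a thymus beta subunit, had 0 to 10 counts. Levels are given in CPM, a gene's count scaled to a common library total after TMM normalisation. The parental 0 h libraries were the most spread, with summed CPM over the 48 members of 5705, 5012 and 6122, and their mitochondrial share of counts ran from 3.86% to 7.28%. In MYC-ER cells that share was 9.54% ± 0.260 (SD, n = 3) at 0 h and 6.24% ± 0.553 at 8 h. The basal keratin KRT5 averaged 6921 to 13283 CPM. Markers of cells that should be absent were not all at 0. The leukocyte list summed to a mean of 2.93 to 7.56 CPM per group, nearly all of it CD14, with PTPRC and CD3E at or near 0. The endothelial list summed to 0.147 to 1.95 CPM, with CDH5 at 0. The thymic epithelium list, FOXN1 and AIRE, summed to 1.55 CPM at 0 h in MYC-ER cells, 0.0668 CPM at 8 h and 0.581 CPM in parental cells at 0 h. The testis list, DAZL and DDX4, summed to a mean of at most 0.0399 CPM per group. The 3 fibroblast markers summed to 215 CPM at 0 h in MYC-ER cells, 56.3 CPM at 8 h and 94.8 CPM in parental cells at 0 h, nearly all of it COL1A1, with COL1A2 at or near 0. The row named MYC averaged 387, 795, 321 and 248 CPM at 0, 8, 24 and 48 h in MYC-ER cells and 463 to 532 CPM in parental cells, and it may include reads of the fusion.

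The first question was what MYC-ER activation does to proteasome RNA. At 8 h, 38 of the 46 members were higher than at 0 h and 4 were lower (edgeR quasi-likelihood test, adjusted p under 0.05), against 32.2% of all 22158 genes higher and 35.4% lower, or 67.6% called. The median member change was 0.67 on the log2 scale, beside -0.10 over all genes and 0.14 over the 9795 genes that averaged 10 CPM or more. Summed over members, RNA rose from 3328 ± 89.5 CPM (SD, n = 3) at 0 h to 5260 ± 147 at 8 h, then stood at 4341 ± 68.4 at 24 h and 3390 ± 64.1 at 48 h. At 24 h, 37 members were higher than at 0 h and 5 lower, against 30.4% and 31.2% of all genes (61.6% called), with a median of 0.49. At 48 h, 18 were higher and 11 lower, against 23.4% and 20.7% (44.1% called), with a median of 0.14. With libraries scaled by their size alone, the 48 h split became 30 and 4 and the median 0.30. From 8 to 24 h, 6 of the 46 rose and 23 fell, against 28.4% and 27.1% of all genes, a split that became 18 and 16 with libraries scaled by their size alone. From 24 to 48 h, 35 fell and 3 rose, against 25.5% and 28.2% of all genes. In bulk RNA, a change in the mix of cells and a change in RNA per cell cannot be told apart. The mammary epithelial marker list moved at the same time, with 7 of 9 genes higher and 2 lower at 8 h, as did the mitochondrial share above. Of the markers of other cells, COL1A1 and CD14 fell by 1.95 and 0.34 at 8 h, and PECAM1, an endothelial marker, rose by 3.15 from 0.113 to 1.01 CPM. The part of these in the result was not tested.

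**Figure D1:**
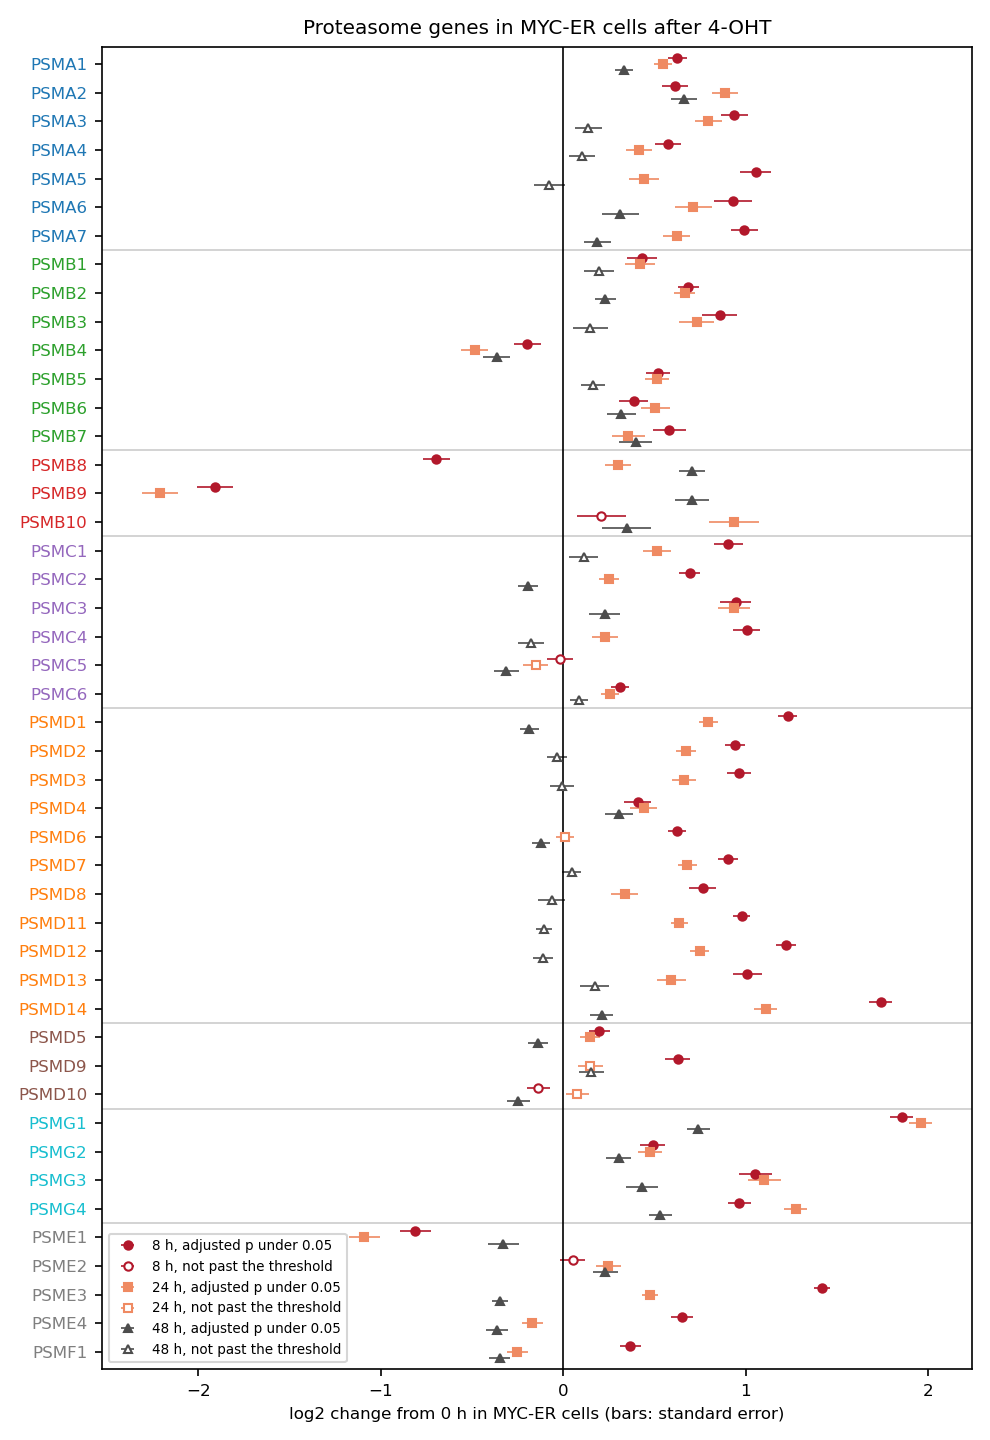
The log2 change from 0 h in MYC-ER cells is on the horizontal axis for each of the 46 tested genes, ordered and coloured by role, with a point for 8, 24 and 48 h of 4-OHT and standard errors as bars. Most 20S and 19S subunits lie to the right of 0 at 8 h and near 0 at 48 h, while PSMB8, PSMB9 and PSME1 lie to the left at 8 h.

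Of the 31 constitutive 20S and 19S subunits, 29 rose at 8 h and 1 fell, 28 rose and 1 fell at 24 h, and 10 were higher and 5 lower at 48 h. At these times 67.6%, 61.6% and 44.1% of all genes were called in either direction, so the number called at 48 h is near the background. The share of these subunits in all counts went from 0.245% at 0 h to 0.401%, 0.337% and 0.256%. All 7 alpha subunits rose at 8 h (median log2 change 0.93) and at 24 h (0.62), and 4 of the 7 were still higher at 48 h. PSMA5, the member of the ring with the largest change at 8 h, had 60.0, 62.6 and 63.0 CPM at 0 h and 134, 123 and 128 CPM at 8 h. Its 24 h libraries read 85.7, 83.1 and 83.3 CPM and its 48 h libraries 60.0, 57.9 and 58.0 CPM. The 8 and 24 h values lie well above the 0 h values, and the 48 h values lie just below them. The changes were 1.05 ± 0.084 (SE, adjusted p = 2.81e-10) at 8 h and -0.08 at 48 h, which did not pass the test.

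PSMA4 had the smallest change of the alpha ring at 8 h, from 73.1, 77.0 and 76.9 CPM to 115, 109 and 114 CPM, a log2 change of 0.57. PSMA2 followed another course. It read 53.1, 56.3 and 58.6 CPM at 0 h and 87.6, 82.6 and 86.4 CPM at 8 h. The 24 h libraries had 106, 101 and 104 CPM and the 48 h libraries 90.6, 89.0 and 85.8 CPM. Under TMM scaling it was the only constitutive 20S or 19S subunit called higher at 24 h than at 8 h, by 0.27 (adjusted p = 0.00248). It stayed 0.66 above its 0 h level at 48 h. With libraries scaled by their size alone, more members were called higher at 24 h than at 8 h, so being the only one rests on the scaling. PSMA6 rose by 0.93 at 8 h, but it shares 919 exon bases on the same strand with the read-through gene AL121594.1, which averaged 54.1 CPM at 0 h and 30.8 CPM at 8 h. The sum of both rows was 105, 128, 130 and 135 CPM at 0, 8, 24 and 48 h, and the division of reads between the rows was not tested.

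In the beta ring 6 of 7 subunits rose at 8 h and again at 24 h, by medians of 0.52 and 0.50, and PSMB4 fell. PSMB3 had the largest change, from 38.0, 37.3 and 40.1 CPM at 0 h to 72.1, 65.8 and 71.0 CPM at 8 h, a log2 change of 0.86 ± 0.097. The groups are far apart at 8 h, and at 48 h its 44.7, 42.3 and 40.9 CPM were above the 0 h libraries by an amount that did not pass the test (0.15). PSMB4, a non-catalytic beta subunit, was the most abundant member per kilobase of transcript in both lines at 0 h. It read 259, 268 and 266 CPM at 0 h and 237, 220 and 235 CPM at 8 h. At 24 h the libraries had 191, 186 and 190.0 CPM and at 48 h 207, 208 and 201 CPM. All later libraries were below all 0 h libraries. The log2 changes at 8, 24 and 48 h were -0.20, -0.48 and -0.37. The 8 h call was lost under DESeq2 size factors (-0.16) and when MYC-ER 0 h replicate 2 or 3 or 8 h replicate 2 was left out. PSMB4 fell by 0.30, 0.46 and 0.51 in parental cells at the same times, and the test of the difference between lines was not passed at any time (-0.02 to 0.14).

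The changes of the proteolytic subunits at 8 h, 0.39 to 0.58, were below the alpha ring's median of 0.93. PSMB5 read 118, 116 and 125 CPM at 0 h and 181, 161 and 172 CPM at 8 h, then 172, 170.4 and 169.8 CPM at 24 h, and its 48 h libraries had 136, 134 and 132 CPM. Its 8 and 24 h libraries did not overlap its 0 h libraries, with changes of 0.52 and 0.51, and the 48 h change of 0.16 did not pass the test (adjusted p = 0.0549). PSMB6 went from 53.2, 54.2 and 58.6 CPM to 74.7, 67.1 and 75.0 at 8 h, 80.5, 77.3 and 77.6 at 24 h and 69.9, 70.3 and 66.5 at 48 h. PSMB7 went from 66.6, 69.6 and 68.5 CPM to 109, 94.9 and 102 at 8 h, 88.3, 85.1 and 88.9 at 24 h and 91.8, 89.9 and 88.1 at 48 h. For both genes every later library was above every 0 h library, and the changes from 0 h passed the test at 8, 24 and 48 h (0.39, 0.50 and 0.32 for PSMB6, 0.58, 0.36 and 0.40 for PSMB7).

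In the 19S base, 5 of 6 ATPases rose at 8 h (median 0.80) and 5 at 24 h (0.25). At 48 h 1 was higher and 2 lower, a number near the background of 44.1% of all genes called. PSMC4 had the largest rise at 8 h, from 55.5, 57.7 and 57.8 CPM to 119.9, 108 and 115 CPM, or 1.00 ± 0.072 (adjusted p = 4.73e-11). By 24 h it had come down to 69.2, 64.7 and 66.5 CPM and by 48 h to 50.7, 50.3 and 50.4 CPM. Thus its 8 h libraries stand apart from all others, and its 48 h change of -0.18 did not pass the test. PSMC3, another ATPase, held its level between 8 and 24 h, with means of 48.4, 93.1, 92.5 and 56.6 CPM at 0, 8, 24 and 48 h. Its 48 h change of 0.23 was lost when any library of the 2 groups was left out. PSMC5 read 100.1, 106 and 104 CPM at 0 h and 104, 98.4 and 104 CPM at 8 h, where the groups overlap (-0.02), and it was 0.31 lower at 48 h. The annotated exons of PSMC5 overlap FTSJ3 on the opposite strand over 19.5% of their length, and those of PSMC1 overlap NRDE2 over 75.8%; whether counting used strand is not given in the sources used here.

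All 11 non-ATPase subunits rose at 8 h, by a median of 0.96, and 10 rose at 24 h. At 48 h 2 were higher and 2 lower, a number near the background of 44.1% of all genes called. PSMD14 (chromosome 2, 161308425 to 161411717, GRCh38), the lid enzyme whose promoter stretch is printed above, had the largest rise of the 31 core subunits. It read 39.1, 42.7 and 44.5 CPM at 0 h and 145, 135 and 142 CPM at 8 h. The later libraries had 92.7, 87.1 and 92.5 CPM at 24 h and 50.3, 48.0 and 47.8 CPM at 48 h. The 4 groups do not overlap each other. Changes from 0 h were 1.74 ± 0.063 (adjusted p = 3.89e-16), 1.11 ± 0.062 (8.21e-13) and 0.21 (0.00822), the last lost without MYC-ER 0 h replicate 1. PSMD1 and PSMD12, a scaffold of the base and a lid subunit, rose by 1.23 and 1.22 at 8 h. PSMD4, a ubiquitin receptor, had the smallest rise of the group, from 109.8, 111 and 117 CPM to 155, 142 and 150.0 CPM (0.41). Besides PSMD14 it was the one non-ATPase subunit still called higher at 48 h, by 0.31.

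The 19S assembly chaperones, which guide the ATPase ring together, changed less. PSMD9 rose from 30.9, 29.7 and 31.9 CPM to 49.7, 44.9 and 48.1 CPM at 8 h, by 0.63. PSMD5 rose by 0.20. PSMD10 read 30.8, 30.6 and 31.0 CPM at 0 h and 27.5, 28.7 and 27.8 at 8 h, values that do not overlap but whose change of -0.14 did not pass the test (adjusted p = 0.0608).

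The chaperones of 20S assembly behaved otherwise: all 4 rose at 8 h (median 1.01), 24 h (1.19) and 48 h (0.48). Of all genes, 32.2%, 30.4% and 23.4% were called higher at these times. The summed level of the 4 chaperones at 0, 8, 24 and 48 h was 81.9 ± 1.23, 189 ± 5.85, 202 ± 0.815 and 116 ± 2.08 CPM. PSMG1 (chromosome 21, 39174769 to 39183514), which pairs with PSMG2 to order the alpha ring, had the largest rise of all members. It read 24.6, 25.5 and 25.8 CPM at 0 h and 96.3, 88.8 and 89.3 CPM at 8 h. The 24 h libraries had 98.0, 98.6 and 98.3 CPM and the 48 h libraries 43.5, 41.7 and 41.6 CPM. Its 48 h libraries remain above all 0 h libraries and below all 8 and 24 h libraries. The changes were 1.85 ± 0.064 (adjusted p = 1.98e-16), 1.96 ± 0.065 (8.5e-17) and 0.74 ± 0.063 (2.95e-09). PSMG2, its partner, rose by 0.49 at 8 h, from 26.7, 27.5 and 26.7 CPM to 38.3, 37.1 and 38.1 CPM. PSMG3 and PSMG4, which form the other chaperone pair, rose by 1.05 and 0.96 at 8 h and by 1.10 and 1.27 at 24 h. The annotated exons of PSMG4 overlap SLC22A23 on the opposite strand over 13.32% of their length. Those of PSMG2 overlap CEP76 over 13.95% and SPIRE1 over 2.74%, also on the opposite strand. SLC22A23 reached up to 438% of the PSMG4 level in a library, and SPIRE1 up to 351% of the PSMG2 level. The part of these neighbours in the counts was not tested.

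**Figure D2:**
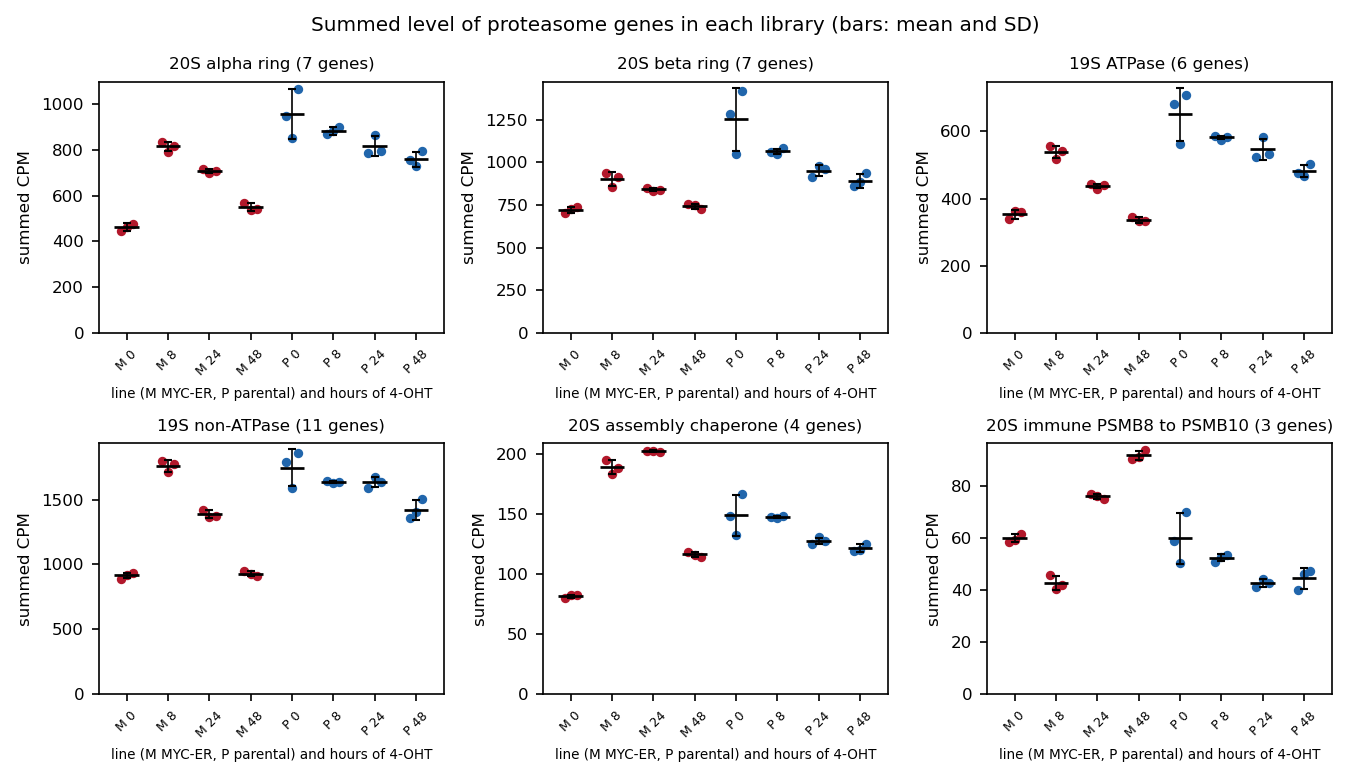
Summed CPM of each role group is on the vertical axis for the 8 line and time groups, with 1 point per library and bars for the mean and SD. The 20S chaperones are highest at 24 h in MYC-ER cells (202 CPM), whereas within MYC-ER cells both 19S groups are highest at 8 h. For the 19S ATPases the parental 0 h mean (651 CPM) lies above the MYC-ER 8 h mean (539 CPM). The 3 parental 0 h libraries lie above the MYC-ER 0 h libraries in all panels except that of the immune subunits.

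The 19S and 20S parts of the particle did not move by the same factor. In MYC-ER cells at 0, 8, 24 and 48 h the ratio of summed 19S to summed 20S constitutive subunit CPM was 1.07 ± 0.00983, 1.34 ± 0.0107, 1.18 ± 0.0109 and 0.981 ± 0.00316 (SD, n = 3). In parental cells it was 1.09 ± 0.0521, 1.14 ± 0.0202, 1.23 ± 0.0100 and 1.15 ± 0.0148. The MYC-ER groups do not overlap each other in this ratio. It is a ratio of RNA sums that are not per length, so it says how the balance moved and not how many particles of each kind could form.

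The immune subunits took a separate course. PSMB8 (chromosome 6, 32840717 to 32844679) read 32.6, 34.3 and 35.7 CPM at 0 h in MYC-ER cells, 21.5, 20.8 and 21.0 at 8 h, 42.0, 42.1 and 42.3 at 24 h and 54.3, 56.0 and 57.0 at 48 h. None of these groups overlap. It fell by 0.70 at 8 h (adjusted p = 2.31e-08) and was 0.30 and 0.71 above 0 h at 24 and 48 h. In parental cells PSMB8 read 35.2 to 46.9 CPM at 0 h and 28.8 to 35.8 CPM at all later times.

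PSMB9 (chromosome 6, 32854192 to 32859851) had the largest falls of all members. In MYC-ER cells it read 9.16, 8.65 and 9.23 CPM at 0 h and 2.47, 2.03 and 2.71 CPM at 8 h. The 24 h libraries had 1.89, 1.98 and 1.97 CPM and the 48 h libraries 14.0, 14.7 and 15.4 CPM. Parental libraries lay between 1.38 and 2.15 CPM at all times. The 8 and 24 h MYC-ER values thus came down to about the parental level, and the 48 h values exceeded those at 0 h. Its change from 0 h was -1.91 ± 0.099 (adjusted p = 1.64e-13) by 8 h, -2.21 by 24 h and 0.71 by 48 h. From 24 to 48 h the gene rose by 2.92 (1.08e-15). PSMB8 and PSMB9 share 139 exon bases on opposite strands, and PSMB8-AS1 overlaps both; the antisense gene averaged 2.34, 0.499, 2.25 and 5.03 CPM at 0, 8, 24 and 48 h in MYC-ER cells, so it too was lowest at 8 h and highest at 48 h, and its part in the counts of PSMB8 and PSMB9 was not tested.

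PSMB10 in MYC-ER cells read 16.9, 16.6 and 16.8 CPM at 0 h and 22.0, 17.7 and 18.3 CPM at 8 h. The 24 h libraries had 33.2, 31.9 and 31.0 CPM and the 48 h libraries 22.0, 20.4 and 21.5 CPM. Its values at 24 h are above all others. The change of 0.93 ± 0.14 at 24 h passed the test (adjusted p = 3.11e-06) and that at 8 h (0.21) did not. The 48 h change of 0.35 (0.0416) was lost when any library of the groups compared was left out. PSMB10 is uncertain, since it shares 644 exon bases with the read-through gene AC040162.1, which averaged 6.66, 16.5, 14.9 and 12.1 CPM. The sum of both rows was 23.4, 35.8, 46.9 and 33.4 CPM, highest at 24 h as well.

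Set against the constitutive subunit it can replace, each immune subunit gave a within-library ratio of CPM. In MYC-ER cells PSMB8 CPM per 100 PSMB5 CPM were 28.6 ± 1.01, 12.4 ± 0.555, 24.7 ± 0.254 and 41.7 ± 1.50 (SD, n = 3) at 0, 8, 24 and 48 h, against 17.0 to 19.3 in the parental groups. PSMB9 per 100 PSMB6 was 16.3 ± 0.795, 3.33 ± 0.293, 2.50 ± 0.117 and 21.4 ± 1.66, against 1.50 to 1.85 in the parental groups. For PSMB10 per 100 PSMB7 the values were 24.6 ± 0.786, 18.9 ± 1.15, 36.7 ± 1.55 and 23.7 ± 0.847, against 10.1 to 13.9. Each of the 3 ratios was lower in all MYC-ER libraries at 8 h than in all at 0 h, and at 48 h those of PSMB8 and PSMB9 stood above their own 0 h values. The fall for PSMB10 depends on how reads were divided between PSMB10 and AC040162.1. Both rows together rose from 23.4 CPM at 0 h to 35.8 CPM at 8 h, beside 68.2 and 102 CPM for PSMB7. Over 36 comparisons of these ratios the exact permutation test, two-sided, can give no p below 0.1 with 3 libraries against 3. The smallest adjusted value was 0.116, so none can pass 0.05.

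**Figure D3:**
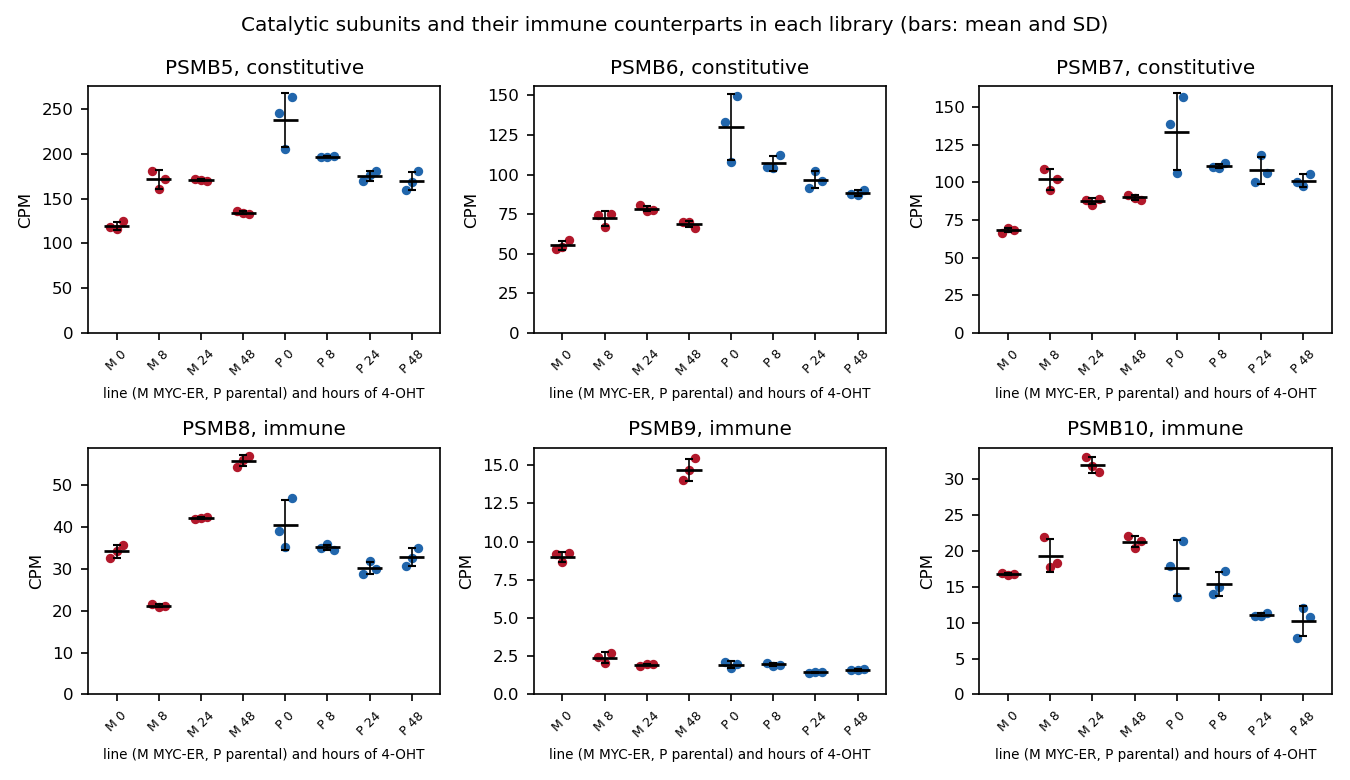
CPM of each constitutive catalytic subunit and of the immune subunit that replaces it is shown by library for the 8 line and time groups, on linear axes that start at 0, with bars for the mean and SD. PSMB9 lies between 8.65 and 15.4 CPM in MYC-ER cells at 0 and 48 h and between 1.38 and 2.71 CPM in all other groups.

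Other genes of antigen presentation, listed with the immune subunits, were 2 higher and 4 lower of 7 at 8 h, 2 higher and 4 lower at 24 h, and 3 higher and 1 lower at 48 h. The background was 67.6%, 61.6% and 44.1% of all genes called in either direction, so the number called says little about this list. TAP1, the peptide transporter whose gene neighbours PSMB9, averaged 134, 44.4, 52.2 and 148 CPM at 0, 8, 24 and 48 h, with changes of -1.59, -1.36 and 0.15, the last not past the test. TAPBP, which links TAP to MHC class I, changed by -1.32 and -1.74 at 8 and 24 h. B2M, the light chain of MHC class I, changed by -0.70 and -0.58. IRF1, an interferon-responsive transcription factor, went from 34.0 CPM at 0 h to 21.1, 14.3 and 71.1 CPM. Against these, NLRC5, a transactivator of MHC class I genes, rose at all 3 times (0.66, 0.93 and 1.32).

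The activators each took their own path. PSME1, a subunit of the 11S activator, read 147, 150.4 and 156 CPM at 0 h in MYC-ER cells, 88.4, 82.5 and 87.5 at 8 h, 69.8, 71.1 and 72.3 at 24 h and 119.5, 119.9 and 121.5 CPM at 48 h. The groups do not overlap, and the changes were -0.81 ± 0.085 (adjusted p = 2.31e-08), -1.09 ± 0.086 (2.62e-10) and -0.33 (0.00305). PSME2, the other 11S subunit, read 65.4, 71.1 and 71.5 CPM at 0 h and 74.5, 71.3 and 69.7 at 8 h, which overlap. It was 0.25 higher at 24 h and 0.23 higher at 48 h, the last lost without MYC-ER 0 h replicate 1. The PSME1 to PSME2 ratio of CPM at 0, 8, 24 and 48 h was therefore 2.18 ± 0.0645, 1.20 ± 0.0495, 0.865 ± 0.0275 and 1.48 ± 0.0430, against 0.928 to 1.09 in the parental groups.

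PSME3 (chromosome 17, 42833397 to 42843760), the nuclear activator with an E-box in its window, had the smallest adjusted p of the members at 8 h. It read 119.5, 127 and 121 CPM at 0 h and 329, 324 and 328 CPM at 8 h. The 24 h libraries had 176, 171 and 164 CPM and the 48 h libraries 98.7, 97.1 and 93.2 CPM. All groups are separate, and the level ends below its start. The changes were 1.42 ± 0.045 (5.08e-17), 0.47 and -0.35. The other E-box holders, PSMD9 and PSMB3, rose by 0.63 and 0.86 at 8 h, beside the member median of 0.67. Among the 7 members with an interferon-element match, PSMB4, PSMB8 and PSME1 fell at 8 h, PSMA4 and PSMG4 rose, and PSMB10 and PSME2 did not pass the test; PSMB9, the remaining member that fell, holds no match in its window.

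PSME4, a large activator that acts on the 20S core, read 126, 139.8 and 132 CPM at 0 h and 209, 208 and 206 CPM at 8 h (0.65). At 48 h it had 105, 101 and 104 CPM, below all 0 h libraries (-0.36). Its 24 h change of -0.17 was lost under library size alone and with the trends on GC content and length removed. PSMF1, an inhibitor of the 20S core, rose by 0.37 at 8 h and was 0.25 and 0.35 lower than at 0 h at 24 and 48 h. Thus 3 of the 5 genes of this class rose at 8 h and 1 fell, and at 48 h 1 was higher and 4 were lower. At these times 67.6% and 44.1% of all genes were called in either direction.

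**Figure D4:**
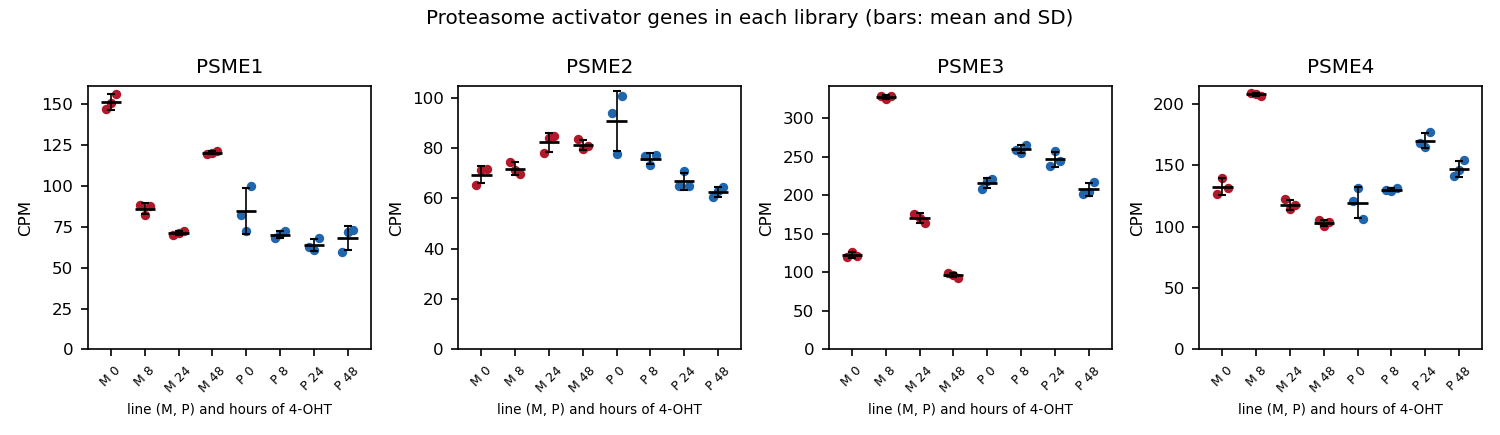
CPM of PSME1, PSME2, PSME3 and PSME4 is shown for each library of the 8 line (M, MYC-ER; P, parental) and time groups, with bars for the mean and SD. PSME1 is lowest at 24 h in MYC-ER cells (69.8 to 72.3 CPM), whereas PSME3 and PSME4 are highest at 8 h.

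Parental cells show RNA levels after the same lengths of 4-OHT exposure without MYC-ER. At 8 h 4 of the 46 members were higher and 15 lower, against 15% and 16% of all genes (31% called), with a median of -0.10. At 24 h 5 were higher and 30 lower, against 21.2% and 21.7% (42.9% called), and at 48 h 3 were higher and 37 lower, against 20.4% and 20.1% (40.5% called). The medians were -0.22 and -0.31. These comparisons share the parental 0 h libraries, in which the core subunits were also the most variable. All 7 beta subunits fell at 24 and 48 h, with median log2 changes of -0.44 and -0.50. PSMB3 read 123, 90.8 and 137 CPM at 0 h and 95.5, 93.0 and 95.5 CPM at 8 h. Those at 24 h had 77.6, 93.5 and 82.8 CPM and those at 48 h 77.3, 70.8 and 75.5 CPM. Only the 48 h libraries were clear of all 0 h libraries. Among the few that rose were PSMD10, a 19S chaperone also known as gankyrin, by 0.31 at 8 h, PSME3 by 0.27 at 8 h and PSME4 by 0.51 at 24 h and 0.30 at 48 h, the PSME4 rises being lost when trends on GC content and length were removed.

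The parental counts rest on few libraries. Without parental 0 h replicate 3 the 8 h comparison called 8 members and without replicate 2 it called 30. Leaving out replicate 1 gave 10, and leaving out parental 8 h replicate 1 or 2 gave 12. A fit of the 2 groups alone called 0 members in edgeR, with 10 of 46 at an unadjusted p under 0.05, while DESeq2 on all libraries called 20. At 24 h, 22 members were called without parental 0 h replicate 3, 21 with the trends on GC content and length removed and 12 in the fit of the 2 groups alone. At 48 h that last fit called 18, all of them lower. Over all genes, the fits of the 2 groups alone called 1452, 4923 and 3274 at 8, 24 and 48 h. The main fit called 6870, 9503 and 8978 genes at these times.

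**Figure D5:**
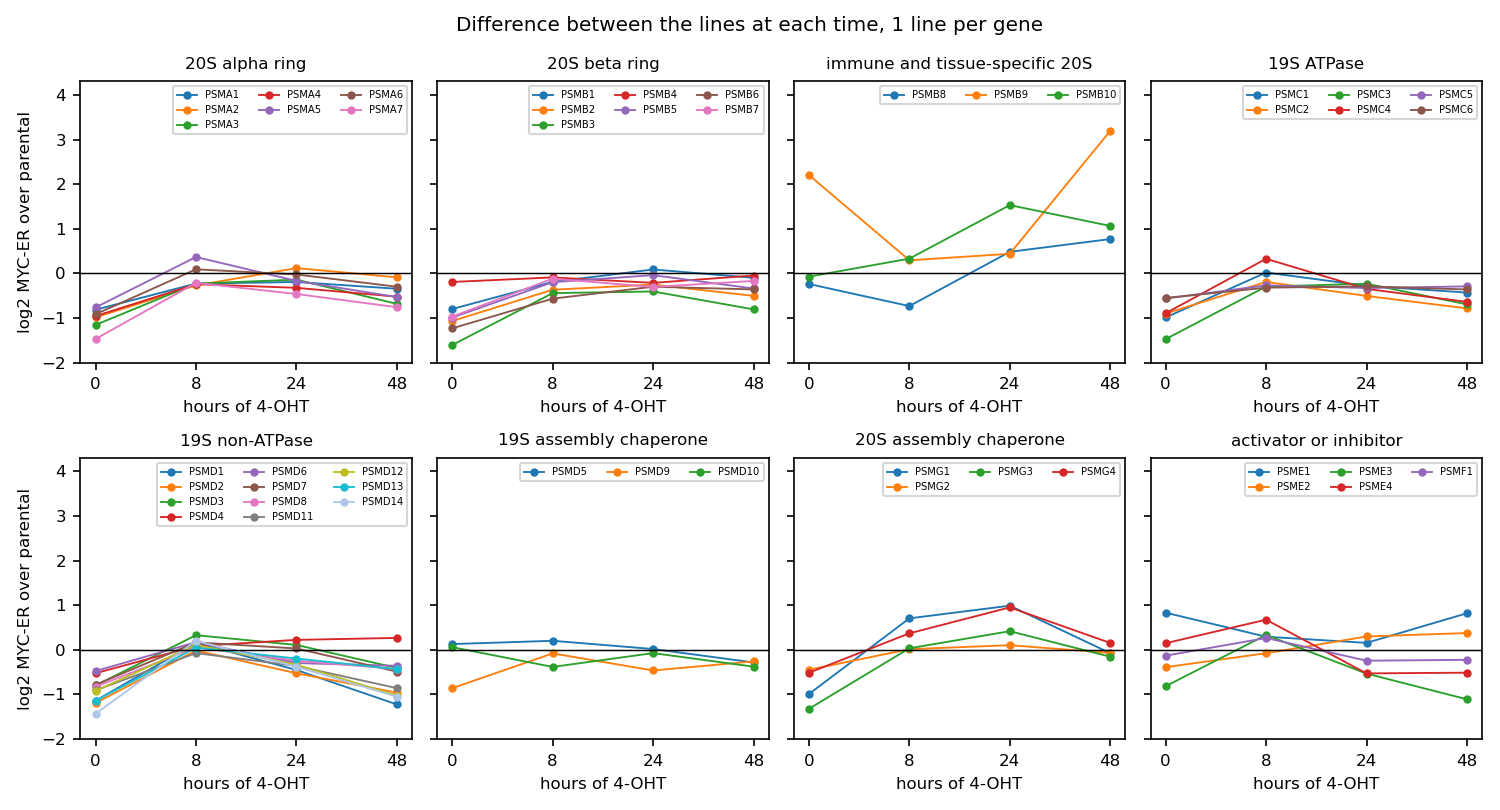
The log2 difference between MYC-ER and parental cells is on the vertical axis for each member at 0, 8, 24 and 48 h of 4-OHT, in a panel for each role group. At 0 h all 31 constitutive 20S and 19S subunits lie below 0, and at 48 h the 3 immune subunits lie above it.

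Before 4-OHT, MYC-ER cells held less proteasome RNA than parental cells. At 0 h 39 of the 46 members were lower in MYC-ER cells and 4 higher, against 32.7% and 31.6% of all genes, with a median of -0.84. All 31 constitutive 20S and 19S subunits were lower, with differences of -1.61 to -0.19 on the log2 scale. For 30 of them the libraries did not overlap, against 32.4% of all genes without overlap and lower in MYC-ER. The summed level of all members was 3328 ± 89.5 CPM against 5613 ± 561 CPM (SD, n = 3). PSMB3 showed the largest difference, -1.61 (adjusted p = 4.07e-12), with 37.3 to 40.1 CPM against 90.8 to 137 CPM, and PSMA7 and PSMC3 both differed by -1.47. PSMD14 had 39.1 to 44.5 CPM in MYC-ER and 107 to 120.0 CPM in parental cells, a difference of -1.43. The members that were higher in MYC-ER cells were PSMB9 (2.20), PSME1 (0.83), PSME4 (0.15) and PSMD5 (0.13). PSME4 turned to -0.36, and PSMB4 and PSMB8 from -0.19 and -0.24 to 0.11 and 0.16, when trends on GC content and length were removed, while the median became -0.70. At 0 h 7 of 9 mammary epithelial markers were also lower in MYC-ER cells and 1 was higher, KRT14 averaging 626 against 9724 CPM. COL1A1 was higher in MYC-ER cells by 1.19, and PECAM1 and CD14 differed by -3.22 and -1.03. The mitochondrial share was 9.54% against 6.06% ± 1.91. The part of these in the line difference was not tested, and with 1 line of each kind, differences that arose between the lines cannot be told apart from those due to the fusion.

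After 8 h of 4-OHT, 16 members were higher in MYC-ER than in parental cells and 15 lower, against 23.1% and 25.5% of all genes, with a median of 0.02. With libraries scaled by their size alone the split was 9 and 21 and the median -0.06, and with the trends on GC content and length removed it was 18 and 10. PSMG1 was 0.71 higher in MYC-ER cells and PSMB6 0.57 lower. At 24 h 8 were higher and 26 lower, against 23.5% and 25.8% (14 and 19 under library size alone), and at 48 h 7 were higher and 32 lower, against 27.3% and 29.4%. By 48 h the non-ATPase subunits were again lower in MYC-ER cells, 10 of 11, with PSMD1 at -1.22 and PSMD14 at -1.05. The 20S chaperones were not, with 1 of 4 higher and 0 lower. All 3 immune subunits were higher: PSMB9 by 3.19, PSMB10 by 1.06 and PSMB8 by 0.77.

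The line by time interaction, which subtracts the parental change from that in MYC-ER cells, tests whether the lines responded differently. It shares the 0 h groups of both lines with the comparisons above. At 8 h 39 of 46 members passed the test with a higher change in MYC-ER cells and 4 with a lower one, against 27.3% and 27.8% of all genes (55.2% called), with a median of 0.79. At 24 h the counts were 38 and 3, against 27.7% and 26.8% (54.5% called), with a median of 0.68. At 48 h they were 33 and 4, against 23.6% and 21.4% (45% called), with a median of 0.45. None of the 31 core subunits passed the test with a lower change in MYC-ER cells at any time. The 4 with a lower change at 8 h were PSMB9 (-1.91), PSME1 (-0.54), PSMB8 (-0.49) and PSMD10 (-0.44). For PSMD14 the interaction fell from 1.63 at 8 h to 1.06 and 0.38, and for PSMG1 it was 1.70, 1.98 and 0.92. PSMB8 and PSMB9 had higher changes at 48 h, 1.01 and 0.99, and PSMB10 had 1.14.

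Proteins that bind the proteasome or feed it were read from a list of other pathway genes. Of 12 proteasome-bound factors, 10 rose and 2 fell at 8 h, 8 rose and 2 fell at 24 h, and 2 were higher and 4 lower at 48 h. At these times 67.6%, 61.6% and 44.1% of all genes were called in either direction, so the 6 of 12 at 48 h are near the background. UCHL5, a deubiquitinase of the 19S cap, averaged 37.3, 89.9, 95.9 and 40.0 CPM at 0, 8, 24 and 48 h. POMP, the maturation factor of the beta ring, averaged 46.5, 110.3, 68.2 and 47.5 CPM. USP14, the other cap deubiquitinase, rose by 1.12 at 8 h and ZFAND5, which stimulates the proteasome, fell by 0.55. Of 8 shuttle and unfolding factors, 6 rose and 2 fell at 8 h, 4 rose and 2 fell at 24 h, and 4 fell at 48 h, the last also near the background. VCP, the ubiquitin-selective unfoldase, rose by 1.28 at 8 h. Ubiquitin genes and E1 enzymes gave 4 higher and 2 lower of 6 at 8 and 24 h, UBA6 rising by 1.10 and RPS27A falling by 0.39 at 8 h.

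Of the regulators of subunit genes, NFE2L1 went the other way from the subunits, averaging 975, 272, 330 and 737 CPM at 0, 8, 24 and 48 h in MYC-ER cells and 439 to 604 CPM in parental cells. Its changes were -1.84 (adjusted p = 3.47e-17), -1.56 and -0.40. NFE2L3, a related factor, rose by 3.43 at 8 h from a mean of 0.724 to 7.79 CPM. The list of regulators also held NFE2L2, DDI2 and NGLY1, which are not described here, so NFE2L1 does not stand for the list. NFE2L1 acts after its protein is cut and released from the endoplasmic reticulum, which RNA levels do not show.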

How the data were processed

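The deposited file is a table of whole-number counts per gene and library, not normalised. Per the submitters' processing notes, the authors used Trimmomatic 0.39, STAR, StringTie 2.1.3b and GRCh38. Since StringTie derives counts from coverage, a count may be an estimate. The annotation release, the strand setting and the treatment of reads that match several genes are not given in the sources used here, nor are the 3 libraries that shared each lane, so a lane effect cannot be told apart from a group effect.

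Groups were taken from the labels. After edgeR's filterByExpr, TMM factors were computed for 22158 genes, and edgeR 4.0.16 (R 4.3.3, limma 3.58.1) fitted them with 1 mean per group over 24 libraries. Contrasts used the quasi-likelihood test, two-sided, with Benjamini-Hochberg adjustment over all genes and a threshold of 0.05. The code was tested on simulated data. CPM uses the TMM-scaled total. Immune to constitutive ratios used log2 CPM with a prior count of 2 and an exact permutation test.

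Symbols were matched for 60295 of 60668 rows. Transcript length, GC content and exon overlaps came from GENCODE 29, gene positions and promoter windows from RefSeq. Sequences of 6 members were not found. Members and gene lists were chosen with earlier results of these data known. Full values are given for the largest and smallest 8 h change in each role group, PSMB5 to PSMB10, PSME1 to PSME4 and members that went against their group. Other members named with a value, such as PSMA6, PSMD1 and PSMD12, fall outside this rule and were picked after their values were seen. Alternatives were DESeq2 1.42.0 and its size factors, library size alone, upper-quartile scaling, other count filters, fits of the compared groups only, the replicate number as a block, removal of lowess trends (span 0.3) on GC content and length, and leaving out each library.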

Additional observations from a re-analysis of the deposited data

Results flagged for a closer look

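The results below differed between the lines in the test of the line by time interaction (log2, edgeR, positive where MYC-ER cells changed upward relative to parental cells). The test called 43, 41 and 37 of the 46 members at 8, 24 and 48 h, against 55.2%, 54.5% and 45% of all genes. All results below share the 0 h libraries of both lines, so they do not stand as separate evidence.

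Among 20S subunits the 8 h differences were 1.13 for PSMA5, 0.72 for PSMA4, 1.16 for PSMB3 and -1.91 for PSMB9. At 24 h they were 0.59 for PSMA5, 0.63 for PSMA4, 1.20 for PSMB3, -1.77 for PSMB9 and 1.60 for PSMB10. At 48 h they were 0.44 for PSMA4, 0.80 for PSMB3, 0.99 for PSMB9 and 1.14 for PSMB10. PSMB9 thus changed sign between 24 and 48 h.

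Among 19S subunits and their chaperones the 8 h differences were 1.22 for PSMC4, 0.29 for PSMC5, 1.63 for PSMD14, 0.61 for PSMD4, 0.78 for PSMD9 and -0.44 for PSMD10. At 24 h they were 0.55 for PSMC4, 1.06 for PSMD14, 0.75 for PSMD4 and 0.40 for PSMD9. At 48 h they were 0.25 for PSMC4, 0.27 for PSMC5, 0.38 for PSMD14, 0.79 for PSMD4, 0.60 for PSMD9 and -0.44 for PSMD10. The PSMC5 value at 8 h came from a fall in parental cells (-0.31) beside no call in MYC-ER cells (-0.02).

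Among the other members the 8 h differences were 1.70 for PSMG1, 0.46 for PSMG2, 1.15 for PSME3 and -0.54 for PSME1. At 24 h they were 1.98 for PSMG1, 0.55 for PSMG2, 0.28 for PSME3 and -0.68 for PSME1. At 48 h they were 0.92 for PSMG1, 0.38 for PSMG2 and -0.29 for PSME3.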

How the results depend on the processing

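The count of members called stayed within 1.5 times its value in 145 alternative fits and moved further in 5; with a library left out it stayed in 102 and moved in 6. It did not for parental 8 h (0 members with only the groups compared; 8 to 30 when libraries were left out), parental 24 h (21 with GC and length trends removed, 22 with the replicate block as well, 12 with only the groups compared; 22 to 38) or parental 48 h (18 with only the groups compared; 32 to 41). With only the groups compared, calls over all genes were fewer too, at 1452, 4923 and 3274 for parental 8, 24 and 48 h. The main fit called 6870, 9503 and 8978 genes. The cause was not tested. Left-out libraries moved medians to -0.18 and -0.00052 for parental 8 h, -0.29 to -0.10 for 24 h, -0.40 to -0.21 for 48 h, -0.90 to -0.76 for MYC-ER against parental at 0 h, 0.70 to 0.85 for the 8 h interaction and 0.33 to 0.51 for the 48 h one, with the 2 ends of each range given by leaving out parental 0 h replicate 2 or replicate 3.

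With library size alone, which moved the median of all genes from 0.05 to 0.26 for MYC-ER 24 h against 8 h, the member medians were 0.58, 0.61 and 0.30 for MYC-ER 8, 24 and 48 h against 0 h, -0.014 for 24 h against 8 h, -0.10 and -0.22 for MYC-ER against parental at 24 and 48 h, and 0.66 and 0.55 for the 8 and 48 h interactions; for MYC-ER against parental at 8 h the median reversed to -0.064. Under upper-quartile scaling they were 0.53 and 0.46 (MYC-ER 8 and 24 h), -0.12 (24 h against 8 h), -0.32 (48 h against 24 h), -0.12 and -0.22 (lines at 24 and 48 h), and 0.69 and 0.54 (8 and 48 h interactions). With GC and length trends removed, alone or with the replicate block, they were 0.43 (MYC-ER 24 h), -0.31 (48 h against 24 h), -0.70 (lines at 0 h) and 0.063 (lines at 8 h). With only the groups compared, MYC-ER 24 h gave 0.53. Higher and lower calls became 30 and 4 for MYC-ER 48 h under library size alone, 8 and 18 for 24 h against 8 h under upper-quartile scaling, 13 and 17 and 12 and 17 for the lines at 8 and 24 h under that scaling, and 20 and 11 at 8 h with trends removed and the block.

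Of named members, 16 values reversed, all with GC and length trends removed, alone and with the block: PSME4 parental 24 h -0.018 and -0.017, PSME4 parental 48 h -0.21 and -0.21, PSMB8 parental 48 h 0.019 and 0.019, PSMB9 parental 48 h 0.074 and 0.073, PSMB4 line difference at 0 h 0.11 and 0.11, PSMB8 0.16 and 0.16, PSME4 -0.36 and -0.36, and PSMC4 48 h interaction -0.039 and -0.039. The cause was not tested. Another 171 values lost their call under these alternatives and 2693 kept direction and call; with a library left out, 137 lost it and 1975 did not. Differences in the 3 immune ratios moved by less than the SD between libraries throughout, but those near 0 could change sign. For parental 24 h against 0 h, PSMB8 to PSMB5 went from 0.019 to -0.026 (log2) without parental 0 h replicate 1. In the same comparison PSMB9 to PSMB6 went from -0.020 to 0.031 without parental 0 h replicate 2.

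Replicate numbers did not pair the libraries: 84 same-number pairs correlated between -0.43 and 0.59 (median -0.0017), and 8 of 24 libraries correlated best with their own number. With the replicate block 42, 42 and 29 members were called at 8, 24 and 48 h in MYC-ER cells. Low counts left PSMA8 and PSMB11, with at most 10 counts in a library, untested.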

Other observations

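The nuclear activator PSME3 and the 11S subunit PSME1 moved in opposite directions from 0 h at 8 and 24 h in MYC-ER cells, and both were lower at 48 h. The ratio of PSME3 to PSME1 CPM in each library was 0.811 ± 0.0327 (SD, n = 3) at 0 h and 3.80 ± 0.114 at 8 h, then came down to 2.40 ± 0.129 at 24 h and 0.801 ± 0.0300 by 48 h. Parental cells had 2.58 ± 0.408, 3.70 ± 0.0886, 3.87 ± 0.327 and 3.07 ± 0.289 at these times. The 8 h MYC-ER libraries (3.72 to 3.93) overlapped those of parental cells at 8 h (3.63 to 3.80), whereas the 0 and 48 h MYC-ER libraries lay below all parental ones. The pair was picked after its values were seen and no test was made.

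PSMG3, a 20S assembly chaperone that rose in MYC-ER cells, fell in parental cells by 0.31, 0.64 and 0.74 on the log2 scale at 8, 24 and 48 h (edgeR, adjusted p = 0.0127, 1.36e-05 and 6.76e-06). These falls share the variable parental 0 h libraries. An edgeR fit of the 2 groups alone called 0 of the 46 members at 8 h, so the 8 h call of PSMG3 was lost there. Processed copies could take reads from a member where counting did not separate them. The 13 annotated copies of PSMC1 reached 9.65% of the PSMC1 level in a library, and the 3 copies of PSMD10 reached 1.97%.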
